A study of Arabidopsis thaliana with 4 samples.

Results

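The 39 genes described here encode the DNA methylation and RNA silencing machinery of Arabidopsis thaliana. They were chosen by function as gene identifiers: DNA methyltransferases and their partners, DNA demethylases, the proteins of RNA-directed DNA methylation, the enzymes of histone H3 lysine 9 methylation and a pair of further silencing factors. They were looked up in 3 deposited gene tables of mRNA sequencing, which together hold 13311 genes. Counts in at least 1 genotype were found for 30 of the 39 genes there, and 19 had counts in all 4 flower libraries.

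The libraries were made from inflorescences of 5-week-old plants, 2 of wild-type Col-0 and 2 of ndx1-4, a mutant line in the Col-0 background with a T-DNA insertion in the homeodomain gene NDX. Each library was 1 of 2 independent biological replicates and held RNA pooled from several plants, so a single line stands for the loss of NDX and the error covers the spread between pools. An inflorescence holds organs and buds of many stages, and fewer cells of a type cannot be told apart from less RNA per cell. One table lists genes that differed between ndx1-4 and Col-0 flowers. The other tables list, for Col-0 and for ndx1-4, genes that differed between flowers and seedlings, and a gene past no threshold appears in none of them.

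DNA methylation in plants marks cytosines in CG, CHG and CHH contexts (H is any base but G) and keeps transposons silent. MET1 copies CG methylation at replication with the VIM proteins and the remodeller DDM1, while the chromomethylases CMT3 and CMT2 read histone H3 methylated on lysine 9 and methylate CHG and CHH sites. In RNA-directed DNA methylation, RNA polymerase IV is brought to target loci by SHH1 and the CLSY remodellers, RDR2 and DCL3 turn its transcripts into small interfering RNAs, and HEN1 stabilises them. Argonautes of the AGO4 clade carry these RNAs to transcripts of RNA polymerase V, where DRM2 methylates cytosines in every context. The glycosylases ROS1, DME, DML2 and DML3 remove the mark. In Arabidopsis the ROS1 gene itself needs methylation near its promoter to be transcribed fully, and its expression drops when RNA-directed DNA methylation is lost.

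Summed over the listed genes, the libraries held between 10726926 and 13814929 estimated counts, which is part of their depth. NDX (AT4G03090) had 430 and 525 counts in Col-0 flowers against 73 and 108 in those of ndx1-4, and its log2 fold change was -2.55 ± 0.17 (SE) with an adjusted p of 0.00853 in the edgeR fit that includes the genes of the genotype table. NDX has ndx1-4 values only through that table, which was selected on this same difference, so its p is not independent evidence. Leaving out any 1 library put that adjusted p between 0.0364 and 0.073. All 5 floral organ identity genes used as markers of the tissue (AG, AP1, AP3, PI and SEP3) were listed in both tissue tables, with a summed level of 427 to 469 FPKM (fragments per kilobase of transcript, scaled to library depth) over the 4 libraries. Gene by gene, their log2 fold changes between genotypes ran from -0.23 for AG to 0.42 for AP1.

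Of the 39 genes, 25 stood in the Col-0 tissue table and 24 in the ndx1-4 tissue table, where 39.6% and 39.1% of the annotated nuclear protein-coding genes are listed. The 19 genes of both tables were VIM1, CMT3, NRPE1, NRPD2, DCL3, HEN1, CLSY1, CLSY2, CLSY3, CLSY4, AGO4, AGO9, DRD1, DMS3, SPT5L, IDN2, SUVH5, ROS1 and DML2. MET1, DDM1, CMT2, DRM1, SUVH2 and IBM1 were listed for Col-0 alone, and SHH1, RDM1, DME, MOM1 and MORC6 for ndx1-4 alone. VIM3, DRM2, NRPD1, RDR2, AGO6, SUVH9, SUVH4, SUVH6 and DML3 stood in no table and are not analysed here. A gene listed for 1 genotype has no value here in the other, so its genotype difference was not tested. ROS1 was the single gene of the 39 in the genotype table, which holds 3.11% of the genes of the 3 tables (414 of 13311).

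**Figure D1:**
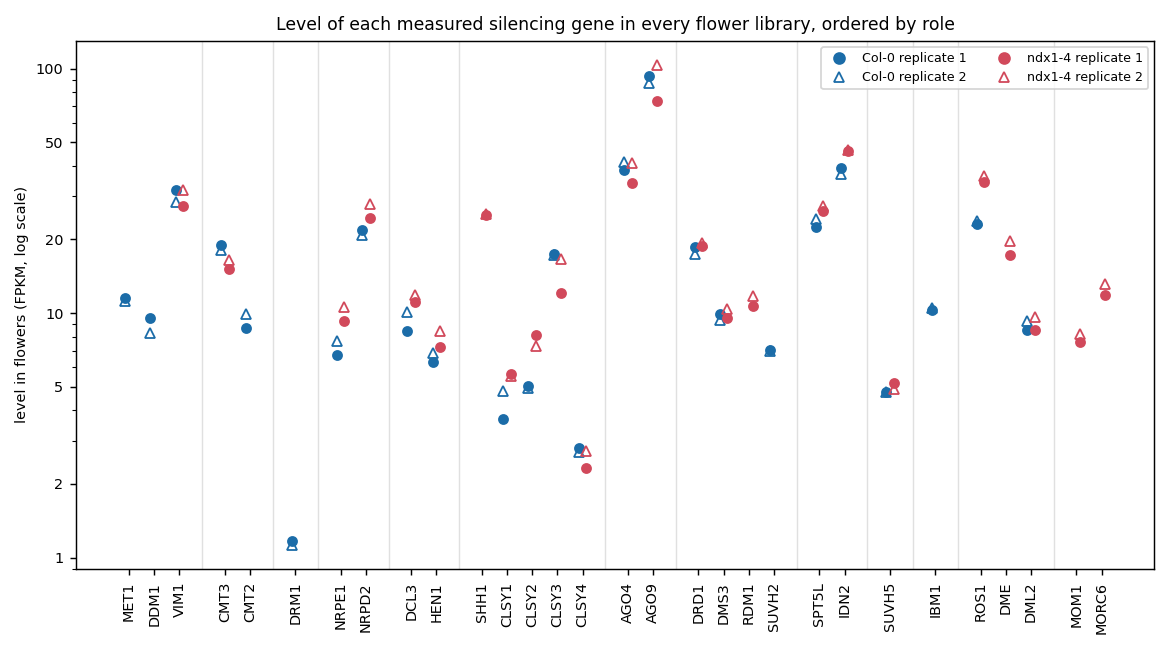
Level in FPKM (log axis) of the 30 measured DNA methylation and silencing genes in each flower library, ordered by role from maintenance methylation to demethylation, with 1 point per library (filled circles replicate 1, open triangles replicate 2, blue Col-0, red ndx1-4). Genes with points of 1 colour were listed for 1 genotype alone. AGO9 lies highest in both genotypes and the red points of ROS1 and CLSY2 lie above the blue ones.

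Levels were compared between genes on the FPKM scale. The 25 genes measured in Col-0 spanned 1.15 to 90.3 FPKM with a median of 9.67, where the 11266 listed genes had a median of 15.2. In ndx1-4 the 24 measured genes spanned 2.52 to 88.8 FPKM with a median of 13.4, and the 11188 listed genes had a median of 15.4. The sets differ, since some genes were listed for 1 genotype alone, so these medians do not compare the genotypes. The argonaute AGO9, known for its role in ovules, led in both genotypes, at 90.3 ± 3.74 FPKM (SD, n = 2) in Col-0. The de novo methyltransferase DRM1, at 1.15 ± 0.0345 FPKM (SD, n = 2), was the lowest in Col-0, and the remodeller CLSY4, at 2.52 ± 0.286 FPKM (SD, n = 2), was the lowest in ndx1-4. In the order of mean levels, the libraries of neighbouring genes were fully apart in 14 of 24 steps in Col-0 and 12 of 23 in ndx1-4. AGO4 (40.1 FPKM) and IDN2 (38.1 FPKM) could not be ordered by their libraries in Col-0, nor could ROS1 (23.5 FPKM) and SPT5L (23.3 FPKM).

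Between genotypes, none of the 19 genes with counts in all libraries passed an adjusted p of 0.01 in the edgeR quasi-likelihood test (Benjamini-Hochberg over 7981 genes), a threshold that 0.0877% of the fitted genes passed. The CLSY2 remodeller and the ROS1 demethylase stood furthest from Col-0 and were 1.55-fold and 1.51-fold as high in ndx1-4, and the next were NRPE1, the largest subunit of polymerase V, and CLSY1. At an unadjusted p of 0.05, 6 of the 19 were higher (ROS1, CLSY2, NRPE1, IDN2, NRPD2 and DCL3) against 10.6% of all genes, and 1 was lower (CMT3) against 8.7%. DESeq2 called 1 of the 19 at an adjusted p of 0.01, ROS1, where it called 2.49% of all genes. ROS1 was already in the genotype table, which the authors selected with DESeq2 on the same libraries. Both ndx1-4 libraries lay above both Col-0 libraries for 11 of the 19, against 27.9% of all genes, and below them for CMT3 and CLSY3, against 25.6%. The log2 fold changes ran from -0.27 to 0.63 with a median of 0.08, beside a median of 0.01 over all fitted genes. In simulated data, where genes of like level were given the same spread, the same test called 20.9% of the genes changed 1.5-fold. This share may not hold in the real data, where the test called 0.0877% of genes and DESeq2 2.49%.

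**Figure D2:**
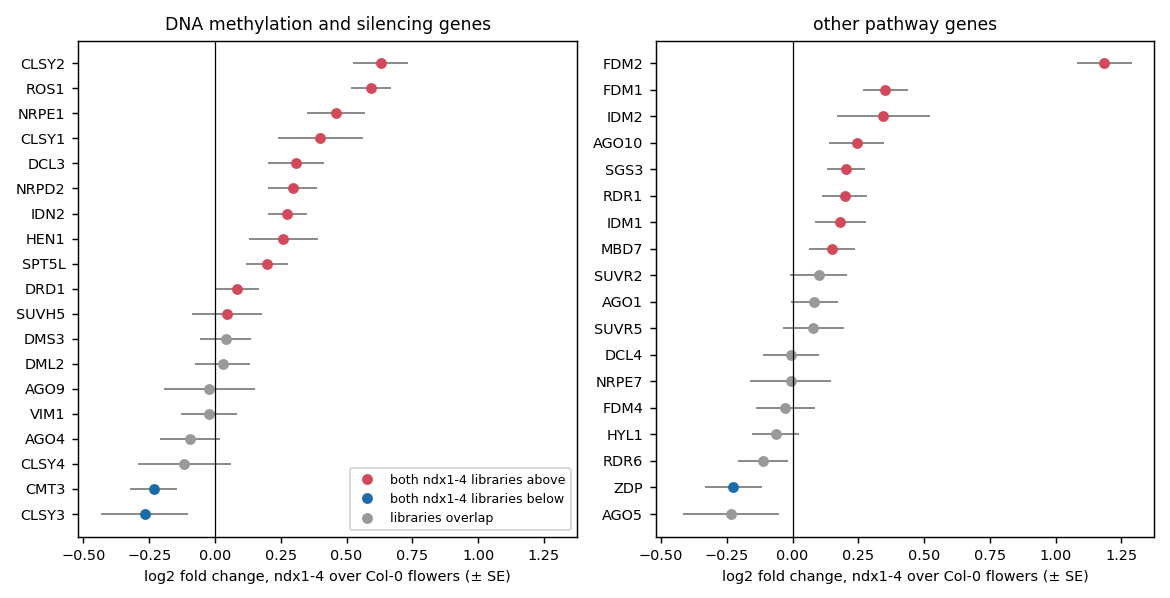
Log2 fold change of ndx1-4 over Col-0 flowers with its standard error (bars) for the 19 DNA methylation and silencing genes (left) and 18 other genes of the same pathways (right), coloured by whether both ndx1-4 libraries lie above, below or among the Col-0 libraries. The values run from -0.27 for CLSY3 to 0.63 for CLSY2 on the left, and FDM2 at 1.19 lies furthest right.

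**Figure D3:**
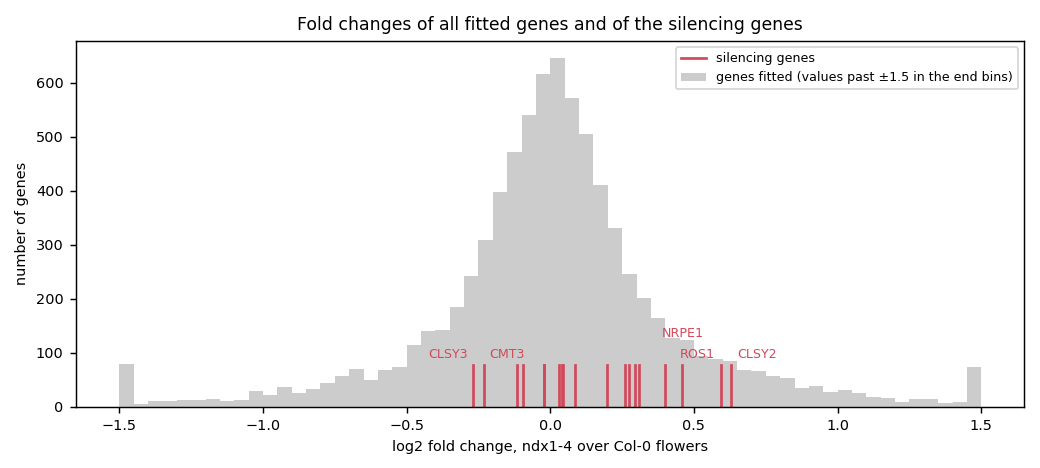
Number of genes (vertical axis) by log2 fold change of ndx1-4 over Col-0 flowers (horizontal axis) for the 7981 fitted genes (grey bars, values beyond the axis range placed in the end bars), with a red mark for each of the 19 DNA methylation and silencing genes. The marks run from CLSY3 at -0.27 to CLSY2 at 0.63, within the spread of the grey bars.

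The DNA demethylase ROS1 had the lowest p of the 19 genes. ROS1 (AT2G36490, chr2:15307907-15314807, minus strand, TAIR10), the main glycosylase of vegetative tissue, had 1776 and 2207 counts in Col-0 flowers against 2953 and 3677 in those of ndx1-4. Per length this was 23.1 and 23.9 FPKM against 34.4 and 36.4 FPKM, so both ndx1-4 libraries were above both Col-0 libraries by far more than replicates differed. The fold was 1.51, with a log2 fold change of 0.59 ± 0.08 (SE), an edgeR adjusted p of 0.0773 and the 53rd lowest p of the 7981. This call depended on the test. The adjusted p was 9.1e-05 in DESeq2 and 0.00748 in edgeR with the replicate number as a block. It was 0.0391 in edgeR with the genes of the genotype table fitted alongside. Those genes had been selected on the genotype difference, which lowers adjusted p values, so the 0.0391 is not independent evidence. The authors selected the genotype table, ROS1 included, with DESeq2 on these same libraries, so the 9.1e-05 is not independent evidence either. The unadjusted edgeR p of ROS1 hardly moved, at 0.000522 in the reported fit and 0.000526 with those genes. Over all alternatives the adjusted p ran from 9.1e-05 to 0.301, and leaving out any 1 library kept the log2 fold change between 0.55 and 0.64.

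Of the other glycosylases, DML2 alone was measured in both genotypes. DML2 (AT3G10010), a close relative of ROS1, had 564 and 729 counts in Col-0 flowers against 625 and 831 in those of ndx1-4, or 8.56 and 9.31 FPKM against 8.55 and 9.63 FPKM. Its libraries overlapped, with a log2 fold change of 0.03 ± 0.10 (SE), which turned to -0.01 when libraries were scaled by total counts. DME (AT5G04560), which acts in the central cell of the female gametophyte and in pollen, was listed for ndx1-4 alone, at 17.3 and 19.6 FPKM. In Col-0, ROS1 at 23.5 FPKM stood above DML2 at 8.94 FPKM with no overlap of libraries.

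The stretch before the ROS1 gene is shown because it was the single gene of the 39 in the genotype table. It is the 250 bases upstream of the annotated gene start on the coding strand (chr2:15314808-15315057, RefSeq TAIR10.1), with CG sites in capitals.
ROS1 upstream: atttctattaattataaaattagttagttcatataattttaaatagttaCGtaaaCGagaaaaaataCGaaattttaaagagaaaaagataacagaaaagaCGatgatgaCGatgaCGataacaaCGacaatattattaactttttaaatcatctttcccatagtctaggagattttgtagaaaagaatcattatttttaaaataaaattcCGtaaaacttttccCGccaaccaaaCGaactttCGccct
This window held 11 CG sites, more than 90.8% of the windows of 27443 protein-coding genes, whose median was 5, while the median of the 39 genes was 4. Windows were searched on both strands for the E2F motif, a site bound by cell-cycle factors, spelled TTTCCCGC, TTTGGCGC, TTTCGCGC or TTTGCCGC. Of the 39 windows, only that of ROS1 held one, TTTCCCGC at 30 bases before the start, and 1.41% of all windows held at least 1. A match is a description of letters and not of binding.

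Among the genes of polymerase IV recruitment, CLSY2 and CLSY1 were above Col-0 in both ndx1-4 libraries. CLSY2 (AT5G20420, chr5:6898790-6904242, minus strand), an SNF2-type remodeller that works with polymerase IV, had 318 and 374 counts in Col-0 flowers against 568 and 609 in those of ndx1-4. Its levels were 5.05 and 4.96 FPKM against 8.10 and 7.35 FPKM, so the genotypes were apart and the replicates of each close together. The log2 fold change was 0.63 ± 0.11 (SE), 1.55-fold, with an adjusted p of 0.104 in edgeR and 0.025 in DESeq2 (0.0166 to 0.325 over all alternatives). CLSY1 (AT3G42670), its nearest relative, had 226 and 353 counts in Col-0 flowers against 388 and 445 in those of ndx1-4, or 3.68 and 4.78 FPKM against 5.65 and 5.51 FPKM. The ndx1-4 libraries were again above, but the Col-0 replicates differed by 0.38 on the log2 scale, nearly as much as the genotypes (0.40 ± 0.16 SE, adjusted p 0.272). Leaving out replicate 1 of Col-0 gave CLSY1 a log2 fold change of 0.23, and leaving out replicate 2 gave 0.60.

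CLSY3 and CLSY4, which direct polymerase IV in reproductive tissue, lay on the other side of zero. CLSY3 (AT1G05490) had 1268 and 1501 counts in Col-0 flowers against 976 and 1592 in those of ndx1-4, or 17.5 and 17.3 FPKM against 12.1 and 16.7 FPKM. The lower level sat mainly in ndx1-4 replicate 1, and the log2 fold change of -0.27 ± 0.17 (SE, adjusted p 0.416) became -0.05 without that library and -0.53 without ndx1-4 replicate 2. CLSY4 (AT3G24340) had 156 and 180 counts in Col-0 flowers against 144 and 200 in those of ndx1-4, or 2.80 and 2.69 FPKM against 2.31 and 2.72 FPKM, and its libraries overlapped (log2 fold change -0.12 ± 0.18 SE). Whether the genotype difference varied between CLSY genes was not tested. In both genotypes CLSY3 was the highest of these remodellers and CLSY4 the lowest, with the libraries of CLSY3 above those of the others. SHH1 (AT1G15215), the reader of lysine 9 methylation that joins CLSY1 and CLSY2 at target loci, was listed for ndx1-4 alone, at 25.2 and 25.4 FPKM (354 and 396 counts).

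The upstream window of CLSY2 is shown because this gene had the largest fold change of the 19 (250 bases before the start, chr5:6904243-6904492, minus strand, RefSeq TAIR10.1, CG sites in capitals).
CLSY2 upstream: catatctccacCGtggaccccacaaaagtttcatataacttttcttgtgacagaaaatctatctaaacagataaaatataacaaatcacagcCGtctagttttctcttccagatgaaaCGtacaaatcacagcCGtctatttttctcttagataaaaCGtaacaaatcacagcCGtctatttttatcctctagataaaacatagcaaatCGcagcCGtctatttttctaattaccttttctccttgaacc
The word CAGCCGTCTA, picked out after the sequence had been read, occurs 4 times in the CLSY2 window, beginning 162, 121, 81 and 39 bases before the start. It occurs in 3 of 27443 windows (0.0109%), in no other window of the 39 genes, and at least 3 times in the CLSY2 window alone.

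The polymerase subunits NRPE1 and NRPD2 were higher in both ndx1-4 libraries, short of the threshold. NRPE1 (AT2G40030) had 720 and 985 counts in Col-0 flowers against 1107 and 1476 in those of ndx1-4, or 6.75 and 7.66 FPKM against 9.26 and 10.6 FPKM, with no overlap. The log2 fold change was 0.46 ± 0.11 (SE, adjusted p 0.151), where replicates of each genotype differed by 0.19. NRPD2 (AT3G23780), the second subunit that polymerases IV and V share, had 1454 and 1689 counts in Col-0 flowers against 1833 and 2448 in those of ndx1-4, or 21.8 and 20.9 FPKM against 24.5 and 27.9 FPKM. Its log2 fold change was 0.30 ± 0.09 (SE, adjusted p 0.206), and since 20.4% of its 31-base words also occur in another gene, AT3G18090, part of its reads may be shared.

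Among the enzymes that make small interfering RNAs, DCL3 (AT3G43920) had 604 and 839 counts in Col-0 flowers against 864 and 1100 in those of ndx1-4, or 8.42 and 10.1 FPKM against 11.1 and 11.8 FPKM. The libraries did not overlap, with a log2 fold change of 0.31 ± 0.11 (SE, adjusted p 0.224). HEN1 (AT4G20910), the methyltransferase that protects the ends of small RNAs, had a log2 fold change of 0.26 ± 0.13 (SE, adjusted p 0.339), also with no overlap, and of 0.14 without ndx1-4 replicate 2.

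Of the argonautes of this clade, which bind the small RNAs, AGO4 and AGO9 were measured in both genotypes and their libraries overlapped. AGO4 (AT2G27040) had 1976 and 2576 counts in Col-0 flowers against 1958 and 2757 in those of ndx1-4, or 38.5 and 41.6 FPKM against 34.0 and 40.9 FPKM. AGO9 (AT5G21150) had 4480 and 5090 counts in Col-0 flowers against 3994 and 6563 in those of ndx1-4, or 92.9 and 87.7 FPKM against 74.0 and 103.7 FPKM. The log2 fold changes were -0.09 ± 0.11 and -0.02 ± 0.17 (SE), and that of AGO9 was 0.20 without ndx1-4 replicate 1. The ndx1-4 replicates of AGO9 differed by 0.49 on the log2 scale and enclosed both Col-0 values. AGO9 and CLSY3 had the widest gaps between ndx1-4 replicates among the 19 genes, both lower in replicate 1.

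**Figure D4:**
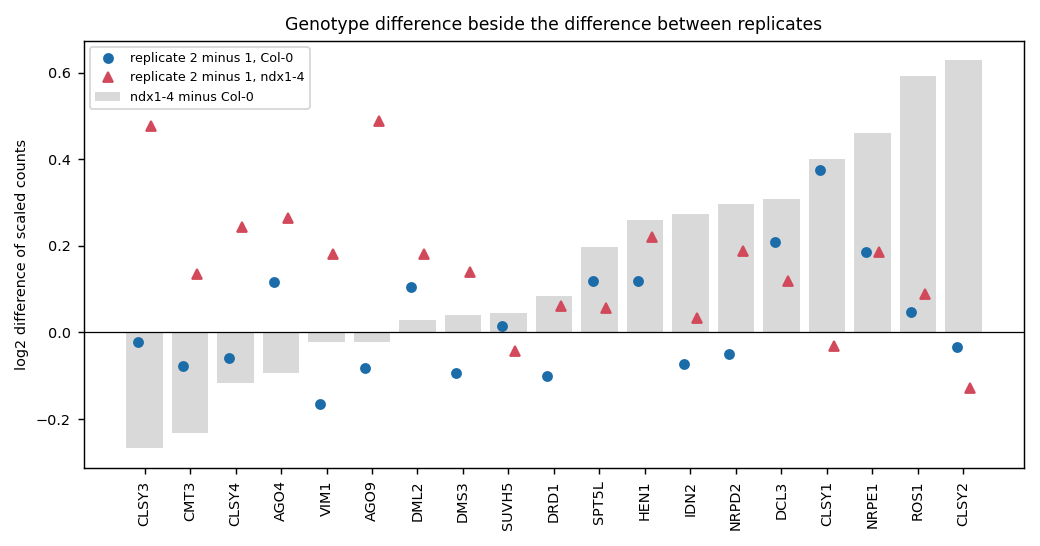
Log2 difference of scaled counts between genotypes (grey bars, ndx1-4 minus Col-0) and between replicates (replicate 2 minus replicate 1, blue circles Col-0, red triangles ndx1-4) for the 19 genes. For ROS1 and CLSY2 the bar is several times the replicate differences, while for AGO9 and CLSY3 the ndx1-4 replicates differ by 0.49 and 0.48, more than the genotypes.

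Pollen genes differed between the same ndx1-4 replicates in the opposite direction. The summed level of 5 pollen genes (VGD1, VGDH1, PPME1, ANX1 and ANX2) was 609 and 568 FPKM in Col-0 and 953 and 637 FPKM in ndx1-4 replicates 1 and 2, all 5 being measured in each library. The summed level of 3 tapetum genes (A9, AMS and MS1) was 109 to 139 FPKM in the 4 libraries, most of it from A9. Their log2 fold changes were 0.10 ± 0.16 for A9, 0.15 ± 0.09 for AMS and 0.92 ± 0.17 for MS1 (SE). MS1 had 3.3 and 3.8 FPKM in Col-0 against 6.5 and 6.8 FPKM in ndx1-4, with an edgeR adjusted p of 0.113. The part of pollen content in the values of AGO9 and CLSY3 was not tested.

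Transcripts of the proteins around polymerase V were close to or above their Col-0 levels, with none past the threshold. IDN2 (AT3G48670), a double-stranded RNA binding protein, had 1277 and 1459 counts in Col-0 flowers against 1663 and 1995 in those of ndx1-4, or 39.2 and 37.0 FPKM against 45.9 and 46.4 FPKM, and the groups did not overlap. The log2 fold change was 0.27 ± 0.07 (SE, adjusted p 0.173), and 10.4% of the 31-base words of IDN2 also occur in AT4G01780. SPT5L (AT5G04290), an elongation factor relative that binds AGO4, was above Col-0 in both libraries at 0.20 ± 0.08 (SE, adjusted p 0.273). Of the DDR complex that brings polymerase V to chromatin, the remodeller DRD1 (AT2G16390) had 823 and 923 counts in Col-0 flowers against 922 and 1128 in those of ndx1-4, or 18.7 and 17.5 FPKM against 18.8 and 19.4 FPKM. Its log2 fold change was 0.08 ± 0.08 (SE), and the libraries were apart by a very small margin.

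DMS3 (AT3G49250), a hinge protein of the same complex, overlapped between genotypes (log2 fold change 0.04 ± 0.10 SE), and 54.6% of its annotated exons lie opposite AT3G49240 on the other strand. RDM1 (AT3G22680), the third partner, was listed for ndx1-4 alone at 10.7 and 11.8 FPKM, and 68.4% of its exons lie opposite AT3G22670. Libraries of this kit do not mark strand, so reads of these overlapping genes cannot be told apart. SUVH2 (AT2G33290), which binds methylated DNA and helps to recruit polymerase V, was listed for Col-0 alone, at 7.08 and 6.96 FPKM.

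Of the methyltransferases, CMT3 (AT1G69770) lay lower in ndx1-4. It had 819 and 934 counts in Col-0 flowers against 723 and 931 in those of ndx1-4, or 19.0 and 18.1 FPKM against 15.1 and 16.5 FPKM, without overlap once depth was scaled. The log2 fold change was -0.23 ± 0.09 (SE), with an unadjusted p of 0.0475 and an adjusted p of 0.256. CMT2 (AT4G19020) was listed for Col-0 alone, at 8.67 and 9.95 FPKM (547 and 762 counts), below CMT3 in both libraries. DRM1 (AT5G15380), known for its expression in reproductive cells, had 33 and 38 counts in Col-0, or 1.17 and 1.12 FPKM.

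Of the maintenance methylation genes, VIM1 (AT1G57820) alone had counts in every library, and its protein binds hemimethylated CG sites. VIM1 had 1116 and 1197 counts in Col-0 flowers against 1088 and 1446 in those of ndx1-4, or 31.8 and 28.3 FPKM against 27.4 and 31.8 FPKM, and its libraries overlapped. MET1 (AT5G49160) was listed for Col-0 alone at 11.6 and 11.2 FPKM (913 and 1062 counts), and so was DDM1 (AT5G66750) at 9.51 and 8.25 FPKM (384 and 400 counts). Both are used by dividing cells. Of 14 DNA replication genes taken as markers of dividing cells, 7 were likewise listed in the Col-0 tissue table, 1 in the ndx1-4 tissue table and 0 in both, and their part in the listing of MET1 and DDM1 was not tested.

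Among enzymes of lysine 9 methylation, the methyltransferase SUVH5 (AT2G35160) was measured in both genotypes, at 4.76 ± 0.0196 FPKM in Col-0 and 5.03 ± 0.20 FPKM in ndx1-4 (SD, n = 2). Its log2 fold change was 0.05 ± 0.13 (SE) and was -0.0001 with total count scaling. IBM1 (AT3G07610), the demethylase that keeps this mark off gene bodies, was listed for Col-0 alone, at 10.3 and 10.5 FPKM. Of the silencing factors that act apart from the level of methylation, MOM1 (AT1G08060) was listed for ndx1-4 alone at 7.62 and 8.20 FPKM, and the ATPase MORC6 (AT1G19100) at 11.8 and 13.2 FPKM.

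A further 50 genes of DNA methylation and small RNA pathways were followed as a comparison, of which 18 were in both tissue tables. None of the 18 passed an adjusted p of 0.01 in edgeR, where 0.0877% of all genes did, and 1 (FDM2) did so in DESeq2, where 2.49% did. At an unadjusted p of 0.05 in edgeR, 3 were higher (FDM2, FDM1 and SGS3) against 10.6% of all genes, and 0 were lower against 8.7%. FDM2 also stood in the genotype table, which was selected on the genotype difference. FDM2 (AT4G00380), a relative of IDN2 that takes part in the same complex, had 846 and 931 counts in Col-0 flowers against 1918 and 2577 in those of ndx1-4. Its levels of 26.7 and 24.5 FPKM against 54.5 and 61.8 FPKM were far apart. The log2 fold change was 1.19 ± 0.10 (SE, 2.27-fold), with an adjusted p of 0.0362 in edgeR and 4.34e-12 in DESeq2 (up to 0.163 with 1 library left out).

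FDM1 (AT1G15910), whose protein pairs with IDN2 as FDM2 does, had 2061 and 2313 counts in Col-0 flowers against 2724 and 3471 in those of ndx1-4, and its log2 fold change was 0.35 ± 0.08 (SE, adjusted p 0.151). The pair share sequence, with 24.6% of the 31-base words of FDM2 and 21.5% of those of FDM1 found in the other, so part of the reads could be assigned to either. SGS3 (AT5G23570), a partner of RDR6 in making secondary small RNAs, had 812 and 989 counts in Col-0 flowers against 1045 and 1238 in those of ndx1-4. Its libraries did not overlap, and the log2 fold change was 0.20 ± 0.07 (SE, adjusted p 0.235). MORC2 (AT4G36280), an ATPase of the family of MORC6, stood in the genotype table and in neither tissue table. It had 63 and 55 counts in Col-0 flowers against 248 and 341 in those of ndx1-4, or 2.00 and 1.46 FPKM against 7.06 and 8.24 FPKM. Of the 31-base words of MORC2, 9.54% also occur in other genes, AT4G36270 sharing the most, so part of its reads may be shared. Fitted with the genes of the genotype table, MORC2 had a log2 fold change of 2.15 ± 0.23 (SE), with an adjusted p of 0.0271 in edgeR and 1.1e-08 in DESeq2. With 1 library left out the log2 fold change ran from 1.94 to 2.40. Since that table was selected on the genotype difference, the size of the MORC2 difference and its p are descriptions and not independent evidence.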

How the data were processed

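The samples were 4 flower mRNA libraries, grouped by genotype and replicate number from the sample labels. The authors made the libraries with a TruSeq RNA kit, quantified reads with Salmon and compared groups with DESeq2 (build TAIR10). Each deposited gene table holds only the genes past the authors' threshold, adjusted p below 0.01. In the count columns the authors deposited, the values are estimated counts of Salmon given as integers. The deposited FPKM values are scaled within a table. The ratio between tables was constant per library over at least 276 genes, so FPKM values were put on 1 scale. The authors' log2 fold change and p-value columns were not used, nor were 8 columns of seedling values. The transposable element table was not analysed here.

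Genotypes were compared with the quasi-likelihood test of edgeR 4.0.16 (R 4.3.3) on the genes shared by the tissue tables whose mean count was 10 or more, with library scaling recovered from counts over FPKM (1.00, 1.20, 1.12 and 1.31, from 314 genes), genotype as the only term and Benjamini-Hochberg adjustment. The genes of this set had been selected on the tissue difference, in each genotype apart and with the same flower libraries. A gene whose flower level differs between genotypes can be missing from the set, and NDX and MORC2 are not in it. The alternatives were TMM and total count scaling, DESeq2 1.42.0, no filter or a mean of 50 counts, a replicate block, leaving out each library, adding the genes of the genotype table and an adjusted p of 0.05. Both tools were tested on simulated data of 7981 genes with 200 changed, in 5 simulations: edgeR called 61.8% and DESeq2 60.0% of genes changed 2-fold. The simulated counts gave genes of like level the same spread, with no spread particular to a gene. In the real data edgeR called 7 genes and DESeq2 199, so the simulated shares may not hold there. Replicates of both genotypes differed by more than counting noise.

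Values per library are given for genes past the threshold or in the genotype table, the 8 with the largest fold changes among those whose libraries do not overlap, the highest and lowest of each role group of 3 or more measured genes, the families DRM, CMT, CLSY, AGO4 and glycosylases, and genes listed for 1 genotype. Other pathway genes are named at an unadjusted p below 0.05, with MORC2, AGO5 and AGO1 and the marker genes DMC1 and ASY1 added after their values were seen. The genes, lists and tests were chosen with earlier results of these data known. Gene structure and upstream windows were read from RefSeq TAIR10.1, whose coordinates match the tables. Python 3.11.15 and matplotlib 3.10.9 were used.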

Additional observations from a re-analysis of the deposited data

How the results depend on the processing

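The number of genes called at an adjusted p of 0.01, 7 in the reported fit, was 281 with a replicate block (193 higher in ndx1-4), 199 in DESeq2 (116 higher), 22 with the genes of the genotype table (18 higher) and 0 without any 1 library, and 30 at an adjusted p of 0.05. Of the 19 genes, 1 was called with the replicate block and 1 in DESeq2, ROS1 in both (log2 fold change 0.59 and 0.58). FDM2 (1.18 and 1.18) was called in the same settings. Both genes stood in the genotype table, selected with DESeq2 on the same libraries, so these calls are not independent evidence. MORC2 (2.16 and 2.14) was too, but it entered the fit through the genotype table, which was selected on this difference. The sample labels do not say what same-numbered libraries share beyond the number. The correlation of their deviations was 0.38 over 7981 genes and -0.21 over the 19 genes, and genes are not independent replicates. A shared batch was not tested. The median log2 fold change of the 19 genes ran from 0.0666 to 0.2021 with 1 library left out, the highest without ndx1-4 replicate 1.

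Of 209 alternative values of the 19 genes, 195 kept direction and side of the threshold. None of the 19 passed it in the reported fit, and fits with 1 library left out have little power, so keeping its side says little. Some turned sign: total count scaling gave -0.003 for DMS3, -0.0001 for SUVH5 and -0.0147 for DML2, and leaving out 1 library gave ranges of -0.117 to 0.065 for VIM1, -0.234 to 0.0317 for AGO4, -0.286 to 0.202 for AGO9, -0.0315 to 0.107 for DMS3 and -0.0661 to 0.117 for DML2. For AGO5, outside the 19, that range was -0.524 to 0.0052. Of the 19, 10 genes stayed above zero in every setting and 3 below (CMT3, CLSY3 and CLSY4). The count of the 19 genes whose ndx1-4 libraries all lay above Col-0 was 11, beside 27.9% of all genes, and 8 to 10 under the other scalings. The share of all genes under those scalings was not computed, so the 8 to 10 cannot be set against it. The cause of these changes was not tested. With 2 pools per genotype, small differences can go undetected. The simulations held no change below 1.5-fold, so detection at the size seen for most of these genes was not measured. Genes absent from the tables have no values here.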

Other observations

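AGO5 (AT2G27880), an argonaute known for its expression around reproductive cells and singled out after its values were seen, had 25.4 and 24.7 FPKM in Col-0 and 17.4 and 25.1 FPKM in ndx1-4. Its gap of 0.53 on the log2 scale between the ndx1-4 replicates, lower in replicate 1, ran the same way as those of AGO9 (0.49) and CLSY3 (0.48), and its log2 fold change of -0.23 ± 0.18 (SE, edgeR adjusted p 0.505) fell short of the threshold. AGO1, the argonaute of the microRNA pathway, was as high as AGO9 on the FPKM scale, at 93.5 ± 1.73 FPKM in Col-0 and 99.9 ± 7.93 FPKM in ndx1-4 (SD, n = 2), and its libraries overlapped. Of 3 meiosis genes, DMC1 and ASY1 were listed in the ndx1-4 tissue table alone, at 4.54 and 5.44 FPKM and at 1.17 and 1.14 FPKM.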
